A study of Arabidopsis thaliana with 5 samples.

Results

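NIGT1/HHO and LBD37 to LBD39 genes encode transcriptional repressors, several of them acting in the nitrogen response. Their transcripts were followed in roots of Arabidopsis thaliana. The 9 genes were taken by locus identifier from 33557 features: HRS1 (AT1G13300), HHO1 (AT3G25790), HHO2 (AT1G68670), HHO3 (AT1G25550), HHO5 (AT4G37180) and HHO6 (AT1G49560) of the NIGT1/HHO family, and LBD37 (AT5G67420), LBD38 (AT3G49940) and LBD39 (AT4G37540). Root RNA was sequenced in 2 libraries of the genotype GFP-GrxS5 and 3 libraries of the wild type Col-0. The label GFP-GrxS5 names green fluorescent protein joined to the glutaredoxin GrxS5; its construct, promoter and number of lines are not described in the labels, nor are plant age and nitrogen supply. The stated question is which genes GrxS5 represses. Values are FPKM, fragment numbers scaled to the size of the library and the length of the gene. Comparisons between genes and between libraries rest on that scaling and assume that it holds.

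NIGT1/HHO proteins are GARP-type DNA-binding repressors. Nitrate raises the transcripts of several members through NIN-like proteins (NLPs). Those repressors then bind high-affinity nitrate transporter genes of the NRT2 family, SPX genes of phosphate signalling and their own promoters, among others. This makes them a brake that links nitrate and phosphate supply. Whether it holds for HHO5 and HHO6 was not tested here. LBD37 to LBD39 are lateral organ boundaries domain proteins, also induced by nitrogen, that repress anthocyanin synthesis genes and several genes of nitrate uptake and reduction.

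The promoters of HRS1, HHO1, HHO2 and HHO3 are shown because they share a binding sequence of the family that the other 5 genes lack in the same window. Each line gives the 250 bases before the gene start in the files (TAIR10, plus strand, read from the nuclear chromosomes of RefSeq TAIR10.1), chr1:4556642-4556891 for HRS1, chr3:9412877-9413126 for HHO1, chr1:25781779-25782028 for HHO2 and chr1:8976184-8976433 for HHO3. Capitals mark matches, on either strand, to GNATATNC, the form bound by the phosphate regulator PHR1, and to TGACG, the core bound by TGA factors.
HRS1: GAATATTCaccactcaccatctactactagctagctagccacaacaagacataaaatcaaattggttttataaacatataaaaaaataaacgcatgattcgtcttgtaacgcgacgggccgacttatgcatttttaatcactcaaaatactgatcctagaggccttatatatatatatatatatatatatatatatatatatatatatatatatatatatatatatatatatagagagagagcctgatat
HHO1: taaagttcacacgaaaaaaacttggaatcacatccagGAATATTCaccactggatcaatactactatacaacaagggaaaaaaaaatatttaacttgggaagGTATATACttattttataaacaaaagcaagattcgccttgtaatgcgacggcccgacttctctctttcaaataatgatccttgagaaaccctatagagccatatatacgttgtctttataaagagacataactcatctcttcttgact
HHO2: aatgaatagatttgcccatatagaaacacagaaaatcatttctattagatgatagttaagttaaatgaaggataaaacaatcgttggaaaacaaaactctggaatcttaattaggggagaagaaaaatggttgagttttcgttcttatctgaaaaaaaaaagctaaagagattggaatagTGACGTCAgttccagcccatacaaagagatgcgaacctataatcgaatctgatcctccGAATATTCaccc
HHO3: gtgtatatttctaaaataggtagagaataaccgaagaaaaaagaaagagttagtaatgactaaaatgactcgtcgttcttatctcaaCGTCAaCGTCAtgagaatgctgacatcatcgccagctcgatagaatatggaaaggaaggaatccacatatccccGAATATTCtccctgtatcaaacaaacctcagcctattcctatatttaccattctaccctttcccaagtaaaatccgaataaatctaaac

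The palindrome GAATATTC, a sequence bound by NIGT1 proteins and a special case of GNATATNC, stood in all 4 of these promoters and in none of those of HHO5, HHO6, LBD37, LBD38 and LBD39. It was found in 193 of 22991 protein-coding promoters of the same length (0.839%), and GNATATNC in 4.86%. The HRS1 match lay 250 to 243 bases before the start, on the edge of the window, so a shorter window would miss it. With windows of 1000 bases the same 4 genes held GAATATTC, against 2.84% of all promoters, and GNATATNC stood in 19.7% of all promoters. In HRS1 and HHO1 the match lay in a common run of 14 bases, GAATATTCaccact, the longest that their windows shared. The HRS1 window begins with this run, so the run could not extend further upstream. HHO1 had a second GNATATNC match, GTATATAC, 148 to 141 bases before its start. TGACG, present in 20.2% of promoters, occurred in HHO2, within the palindrome TGACGTCA, and in HHO3, at 2 places. Over 1000 bases before the start, 8 of the 9 genes held TGACG, against 54.2% of all promoters. HHO1 was the gene without it, singled out after its values were seen. These are matches of letters; binding was not measured here.

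GrxS5 (AT4G15690) had 103 and 124 FPKM in the GFP-GrxS5 libraries, against 3.06, 4.14 and 3.23 FPKM in Col-0, and reads of the fusion are not separated from those of the native gene. The depth was estimated at 3370000 to 4480000 fragments per library, taking the commonest low value of FPKM times gene length as 1 fragment. On that estimate 1 FPKM on 1.5 kb rests on 5.05 to 6.72 fragments. All 13 root markers, among them SHR, SCR and CASP1, were expressed, and 0 passed the test (limma, Benjamini-Hochberg; 2 higher and 3 lower at an unadjusted p under 0.05; 1 lower, PLT1, under quantile normalization). Over all genes tested 4.73% rose and 2.35% fell. Of 12 shoot photosynthesis markers RBCS2B and LHCB1.2 were too low to test, 8 rose in GFP-GrxS5 roots and 2 did not pass. Their summed level was 1398 and 1383 FPKM in GFP-GrxS5, against 592, 578 and 678 FPKM in Col-0, and RBCS2B was listed at 0 in 2 Col-0 libraries. The part of this difference in the results below was not tested. A pair of library kits and a pair of sequencers are named in the labels, with no assignment to libraries, so genotype and kit cannot be told apart. Whether replicates are separate plants is not stated either, and p-values cover only the spread between these libraries, which may be technical.

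The 9 genes did not move as a block. All 9 passed the filter on low values. HHO1 and LBD37 fell in GFP-GrxS5 roots, HHO5 rose, and the other 6 did not pass the test (limma, Benjamini-Hochberg adjusted p under 0.05 over 19693 genes). Over all genes tested, 4.73% rose and 2.35% fell, 7.08% in all. The median log2 change of the 9 genes was 0.19, against 0.01 over all genes tested. The genotypes did not overlap in 8 of the 9 genes, against 42.8% of all genes tested. Both GFP-GrxS5 libraries were above the whole Col-0 range in 6 of them (22.6% of all genes) and below it in 2 (20.3% of all genes). HHO6 was the gene that overlapped. In bulk roots, fewer cells of a type and less RNA per cell cannot be told apart.

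**Figure D1:**
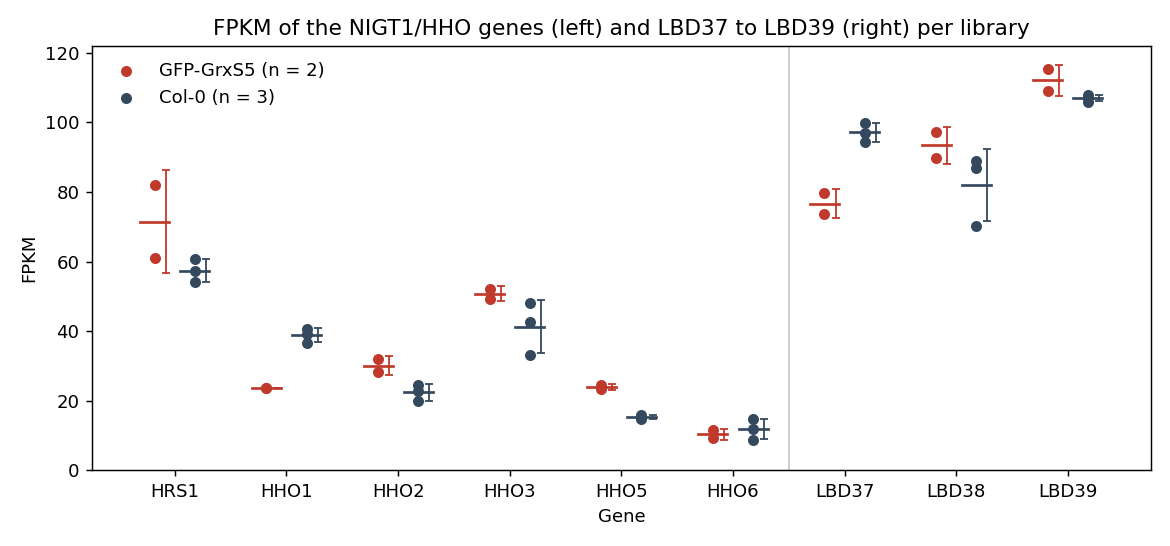
FPKM (vertical axis) of the 9 repressor genes in each library, GFP-GrxS5 (red, n = 2) left of Col-0 (dark, n = 3); points are libraries, horizontal bars means and whiskers SD. HHO1 and LBD37 are lower in both GFP-GrxS5 libraries than in any Col-0 library, HHO5 is higher, and HHO6 overlaps.

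HRS1 and HHO1 are the closest relatives within the family and act together in primary root growth under combined nitrate and phosphate signals. HHO1 (chromosome 3, 9413127 to 9415003) had 23.5 and 23.7 FPKM in the GFP-GrxS5 libraries, against 36.6, 39.1 and 40.6 FPKM in Col-0. The groups are far apart for their spread, with means of 23.6 ± 0.128 FPKM in GFP-GrxS5 and 38.8 ± 2.03 FPKM in Col-0 (SD, n = 2 and n = 3). The log2 change of FPKM + 1 was -0.69 (SE 0.09, 95% interval -0.90 to -0.48; limma, Benjamini-Hochberg adjusted p = 0.0063). HHO1 kept this call in all 13 alternative settings, with log2 changes of -0.73 to -0.66 and adjusted p of 0.00473 to 0.0421 (limma, Benjamini-Hochberg).

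HRS1 (chromosome 1, 4556892 to 4558708) stood at 81.9 and 61 FPKM in GFP-GrxS5, against 57.3, 60.6 and 54.2 FPKM in Col-0. GFP-GrxS5 replicate 2 lay just above the highest Col-0 library, and replicate 1 well above it. The log2 change was 0.30 (SE 0.13, 95% interval 6.4e-05 to 0.60; limma, Benjamini-Hochberg adjusted p = 0.205) and did not pass; it was 0.09 without GFP-GrxS5 replicate 1 and 0.51 without GFP-GrxS5 replicate 2. The ratio of HHO1 to HRS1 was 0.287 and 0.389 in GFP-GrxS5, against 0.638, 0.646 and 0.749 in Col-0. The ratio was thus 1.02 log2 units lower in GFP-GrxS5, with no overlap between genotypes. It reuses the values of HHO1 already tested (log2 change -0.69) and of HRS1, which did not pass. The ratio is therefore a description and no separate support for a shift of the pair. The exact two-sided permutation test gave p = 0.2, the smallest that 2 against 3 libraries allow (Benjamini-Hochberg adjusted p = 0.267 over 4 such ratios).

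HHO2 and HHO3 form the other pair with GAATATTC in the promoter; HHO2 is known in phosphate homeostasis and lateral root growth. HHO2 (chromosome 1, 25782029 to 25784076) had 28.2 and 32 FPKM in GFP-GrxS5, against 22.7, 24.6 and 19.9 FPKM in Col-0. HHO3 (chromosome 1, 8976434 to 8978093) had 49.2 and 52.2 FPKM in GFP-GrxS5, against 33.1, 42.7 and 48 FPKM in Col-0. In both genes the GFP-GrxS5 libraries lay above all Col-0 libraries, for HHO3 by little. Their log2 changes of 0.41 (SE 0.12, 95% interval 0.13 to 0.69) and 0.31 (SE 0.15, 95% interval -0.04 to 0.65) missed the threshold (limma, Benjamini-Hochberg adjusted p = 0.0868 for HHO2 and 0.26 for HHO3). Neither passed in any alternative setting. Their ratio, HHO2 to HHO3, was 0.572 and 0.612 in GFP-GrxS5, within the 0.415, 0.575 and 0.684 of Col-0 (exact two-sided permutation p = 1, also when adjusted).

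HHO5, known for a role in floral meristem regulation, and its relative HHO6 have no GAATATTC in the promoter window. HHO5 (chromosome 4, 17504564 to 17506367) reached 24.5 and 23.4 FPKM in GFP-GrxS5, against 14.8, 15.1 and 15.9 FPKM in Col-0. The replicates of each genotype lay close together and the groups did not overlap, with means of 23.9 ± 0.787 FPKM in GFP-GrxS5 and 15.3 ± 0.598 FPKM in Col-0 (SD, n = 2 and n = 3). HHO5 rose by a log2 change of 0.62 (SE 0.10, 95% interval 0.38 to 0.85; limma, Benjamini-Hochberg adjusted p = 0.0141). That call was lost without GFP-GrxS5 replicate 1 and without GFP-GrxS5 replicate 2 (log2 changes of 0.58 and 0.65; limma, Benjamini-Hochberg adjusted p = 0.0818 and 0.0622, and 0.0102 to 0.0818 over all 13 alternatives). A limma fit blocked by replicate number ended it as well (Benjamini-Hochberg adjusted p = 0.0663).

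HHO6 (chromosome 1, 18342554 to 18344363), the lowest of the 9 genes, had 9.23 and 11.5 FPKM in GFP-GrxS5, against 14.7, 12.0 and 8.82 FPKM in Col-0. The groups overlapped, and the log2 change of -0.16 (SE 0.21, 95% interval -0.65 to 0.34; limma, Benjamini-Hochberg adjusted p = 0.697) was 0.0034 without Col-0 replicate 1. The ratio of HHO5 to HHO6 was 2.66 and 2.03 in GFP-GrxS5, against 1.01, 1.26 and 1.81 in Col-0. Its exact two-sided permutation p of 0.2 (Benjamini-Hochberg adjusted 0.267) is the smallest that these libraries allow, so the test could not pass. HHO4, a relative outside the 9 genes that delays flowering, had 6.78 and 8.04 FPKM in GFP-GrxS5, against 9.51, 8 and 6.12 FPKM in Col-0, and missed the threshold (limma, Benjamini-Hochberg adjusted p = 0.875).

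**Figure D2:**
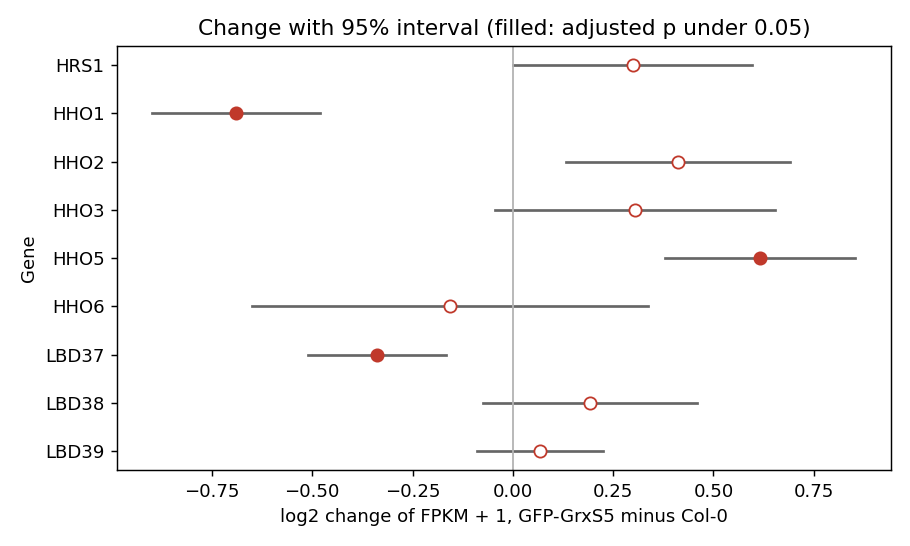
Log2 change of FPKM + 1, GFP-GrxS5 minus Col-0 (horizontal axis), for each of the 9 genes, with the 95% interval of the limma fit; filled points have a Benjamini-Hochberg adjusted p under 0.05. HHO1 (-0.69) and LBD37 (-0.34) lie left of 0, HHO5 (0.62) right of it, and the 6 open points did not pass.

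The 6 NIGT1/HHO genes among the 9, without HHO4, were also summed per library. Their sum was 217 and 204 FPKM in GFP-GrxS5, against 179, 194 and 188 FPKM in Col-0, a ratio of means of 1.12. Such a ratio must lie between those of its members, which ran from 0.61 for HHO1 to 1.57 for HHO5, so it is a description. HHO1 made up 10.9 and 11.6% of that sum in GFP-GrxS5, against 20.4, 20.2 and 21.6% in Col-0. HHO5 made up 11.3 and 11.5% in GFP-GrxS5, against 8.26, 7.76 and 8.5% in Col-0, so the shares of HHO1 and HHO5 lay close together in GFP-GrxS5 and well apart in Col-0. HHO2 also had a higher share in both GFP-GrxS5 libraries, 13 and 15.7%, against 12.6, 12.7 and 10.6% in Col-0. The shares of HRS1, HHO3 and HHO6 overlapped between genotypes.

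**Figure D3:**
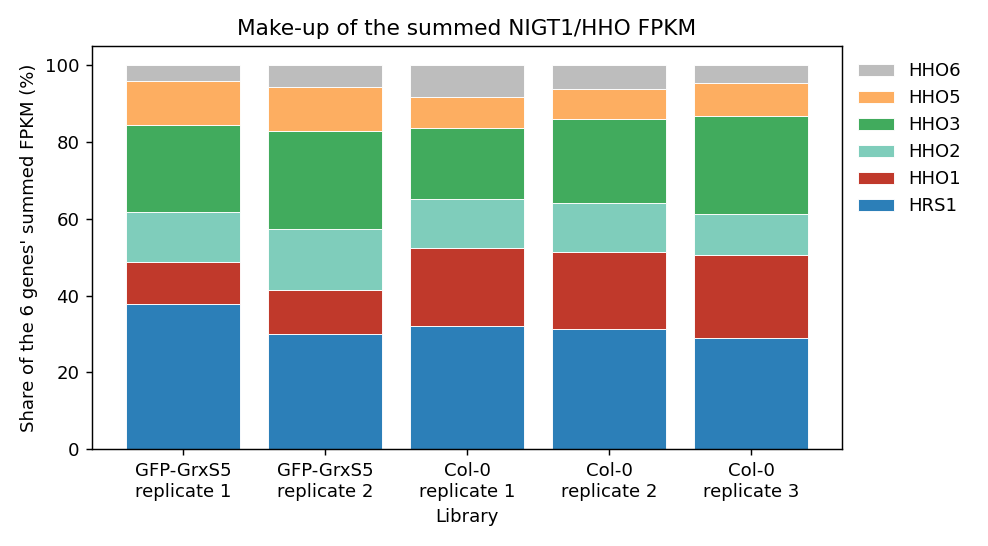
Share of each gene in the summed FPKM of the 6 NIGT1/HHO genes (vertical axis, %), one bar per library, GFP-GrxS5 left of Col-0. The HHO1 segment is 10.9 and 11.6% in GFP-GrxS5 and 20.2 to 21.6% in Col-0.

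LBD37 to LBD39 had the highest mean levels of the 9 genes in both genotypes. LBD37 (chromosome 5, 26904289 to 26906026) had 79.7 and 73.7 FPKM in GFP-GrxS5, against 99.9, 97.1 and 94.5 FPKM in Col-0. The groups did not overlap, and the log2 change of -0.34 (SE 0.07, 95% interval -0.51 to -0.17; limma, Benjamini-Hochberg adjusted p = 0.0373) passed. It no longer passed when any 1 of the 5 libraries was left out, namely GFP-GrxS5 replicates 1 and 2 and Col-0 replicates 1, 2 and 3, with log2 changes of -0.39 to -0.28 (limma, Benjamini-Hochberg adjusted p = 0.0773, 0.148, 0.108, 0.109 and 0.0804 in that order). Limma without a variance trend and limma blocked by replicate number ended it too (Benjamini-Hochberg adjusted p = 0.123 without the trend and 0.127 with the block), so that the call was lost in 7 of the 13 alternatives.

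LBD38 (chromosome 3, 18514343 to 18515475) had 89.7 and 97.2 FPKM in GFP-GrxS5, against 70.2, 87.0 and 88.9 FPKM in Col-0. LBD39 (chromosome 4, 17639533 to 17640665) had 115 and 109 FPKM in GFP-GrxS5, against 107, 108 and 106 FPKM in Col-0. Both stood slightly above all Col-0 libraries in both GFP-GrxS5 libraries, and neither passed. Their log2 changes were 0.19 (95% interval -0.07 to 0.46) and 0.07 (95% interval -0.09 to 0.22), with limma Benjamini-Hochberg adjusted p of 0.342 for LBD38 and 0.587 for LBD39. The ratio of LBD37 to LBD38 was 0.888 and 0.758 in GFP-GrxS5, against 1.42, 1.12 and 1.06 in Col-0. LBD38 was thus the higher of the pair in each GFP-GrxS5 library and LBD37 in each Col-0 library. The exact two-sided permutation p of 0.2 (Benjamini-Hochberg adjusted 0.267) is again the smallest that these libraries allow. The 3 genes summed to 285 and 280 FPKM in GFP-GrxS5, against 277, 292 and 289 FPKM in Col-0. Among the other LBD genes of the same class, LBD41, which responds to low oxygen, had 27.7 and 24.7 FPKM in GFP-GrxS5, against 15.7, 22.2 and 29.3 FPKM in Col-0, and missed the threshold (limma, Benjamini-Hochberg adjusted p = 0.533). LBD40 reached at most 0.31 FPKM, and LBD42 was listed at 0 in every library.

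**Figure D4:**
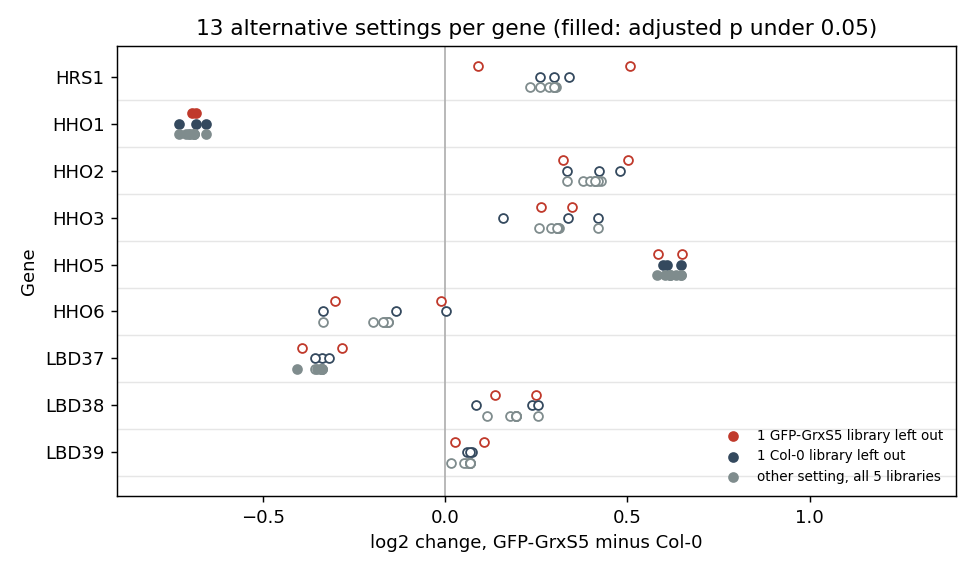
Log2 change of each gene (horizontal axis, GFP-GrxS5 minus Col-0) in 13 alternative settings; red points leave out 1 GFP-GrxS5 library, dark points 1 Col-0 library, and grey points use all 5 libraries with another setting; filled points have a limma Benjamini-Hochberg adjusted p under 0.05. HHO1 is filled throughout, HHO5 is open when either GFP-GrxS5 library is left out, and LBD37 is open in all 5 leave-out settings.

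The order of the levels differed between genotypes at those genes. In GFP-GrxS5 it ran LBD39, LBD38, LBD37, HRS1, HHO3, HHO2, HHO5, HHO1 and HHO6, with means of 112 FPKM for LBD39 and 10.4 FPKM for HHO6. The library ranges of LBD37 and HRS1, and of HHO5 and HHO1, overlapped there. In Col-0 it ran LBD39, LBD37, LBD38, HRS1, HHO3, HHO1, HHO2, HHO5 and HHO6, with means of 107 FPKM for LBD39 and 11.8 FPKM for HHO6, and HHO3 and HHO1 were the neighbours whose ranges overlapped. LBD39 stood above 92.3% of tested genes in GFP-GrxS5 and 92.2% in Col-0. HHO1 stood above 62.7% in GFP-GrxS5 and 77.0% in Col-0.

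Listed regulators of the nitrate and phosphate responses did not pass the test in the main fit. Whether each acts upstream of the 9 genes was not tested, and TGA1 and TGA4 are also counted among the nitrate response genes below. Of 15 listed regulators (the 9 NLP genes, PHR1, PHL1, NRG2, TCP20, TGA1 and TGA4), 14 were tested, 0 rose and 0 fell (limma, Benjamini-Hochberg), with a median log2 change of -0.16. With a filter of 5 FPKM 1 fell, NLP4 (log2 change -0.62), named after its values were seen. NLP9 was too low to test. Over all genes tested 4.73% rose and 2.35% fell, so counts of 0 among 14 lie near those shares. NLP7, the main nitrate sensor of the family, had 26.5 and 22.9 FPKM in GFP-GrxS5, against 27.8, 25.0 and 23.8 FPKM in Col-0. PHR1, which activates NIGT1 genes in phosphate signalling, had 39.1 and 41.8 FPKM in GFP-GrxS5, against 36.5, 42.9 and 38.9 FPKM in Col-0. Both overlapped between genotypes (limma, Benjamini-Hochberg adjusted p = 0.836 for NLP7 and 0.841 for PHR1). In 7 of the 14 genes both GFP-GrxS5 libraries lay below all Col-0 libraries, beside the 20.3% of all genes tested. At an unadjusted p under 0.05, 0 were higher and 5 lower.

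Of 6 reported NIGT1 targets, 5 were tested, and 1 fell. Over all genes tested 2.35% fell, and 7.08% passed in either direction. The nitrate transporter gene NRT2.1 had 487 and 396 FPKM in GFP-GrxS5, against 649, 663 and 882 FPKM in Col-0, a log2 change of -0.72 (limma, Benjamini-Hochberg adjusted p = 0.0317). It lost the call without GFP-GrxS5 replicates 1 or 2 or Col-0 replicate 2 (limma, Benjamini-Hochberg adjusted p = 0.0595, 0.143 and 0.0564, and 0.0258 to 0.143 over all 13 alternatives). Limma with no filter on FPKM, without a variance trend or blocked by replicate number ended the NRT2.1 call too (Benjamini-Hochberg adjusted p = 0.0657, 0.103 and 0.0897 in that order). NRT2.4 had 14.4 and 18.8 FPKM in GFP-GrxS5, against 23.8, 20.8 and 25.6 FPKM in Col-0, with no overlap, and missed the threshold (limma, Benjamini-Hochberg adjusted p = 0.0954). The SPX genes, sensors of phosphate status, did not pass. SPX1 averaged 8.2 ± 1.31 FPKM in GFP-GrxS5 and 10.5 ± 4.34 FPKM in Col-0. SPX2 averaged 22 ± 0.361 FPKM in GFP-GrxS5 and 21.4 ± 2.24 FPKM in Col-0. SPX4 averaged 22.1 ± 1.66 FPKM in GFP-GrxS5 and 25.4 ± 0.77 FPKM in Col-0 (SD, n = 2 and n = 3 for all), and its groups did not overlap. NRT2.5, a transporter gene of nitrogen-starved plants, was listed at 0 in every library. None of 11 tested phosphate starvation genes passed (limma, Benjamini-Hochberg; 0 higher and 1 lower at an unadjusted p under 0.05), with a median log2 change of -0.05.

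Of 9 reported LBD targets, 6 were tested. NRT2.1 is also the reported NIGT1 target that fell, and NIA1, NRT2.1 and NRT1.1 are also nitrate response genes, so these lists are not independent. Of the 6 LBD targets tested, 4 (NIA1, NRT2.1, TT7 and NRT1.1) fell, 1 rose and 1 did not pass. Over all genes tested 2.35% fell and 4.73% rose. The count of 4 was 2 without GFP-GrxS5 replicate 1 or Col-0 replicate 1, 1 without GFP-GrxS5 replicate 2 or Col-0 replicate 2, and 3 without Col-0 replicate 3. It was 1 with no filter on FPKM or without a variance trend, and 2 with the replicate block. NIA1, a nitrate reductase gene, had 192 and 168 FPKM in GFP-GrxS5, against 312, 342 and 396 FPKM in Col-0. DFR, of anthocyanin synthesis, had 29.2 and 18.3 FPKM in GFP-GrxS5, against 2.1, 4.86 and 2.4 FPKM in Col-0. The calls of NIA1 (log2 change -0.95) and DFR (2.61) were kept in all 13 alternatives (limma, Benjamini-Hochberg adjusted p = 0.00422 for NIA1 and 0.00454 for DFR). TT7, which acts earlier in the flavonoid pathway, had 26.7 and 30.3 FPKM in GFP-GrxS5, against 46.5, 53.2 and 39.2 FPKM in Col-0, so these flavonoid genes moved in opposite directions. The TT7 call (limma, Benjamini-Hochberg adjusted p = 0.0295) was lost without GFP-GrxS5 replicates 1 or 2 or Col-0 replicates 1 or 2 (adjusted p 0.0688 to 0.133). It was also lost with no filter on FPKM and without a variance trend (limma, Benjamini-Hochberg adjusted p = 0.0537 and 0.0898, and 0.0218 to 0.133 over all 13 alternatives). NRT1.1, a nitrate transporter that also senses nitrate, had 85.0 and 62.0 FPKM in GFP-GrxS5, against 111, 117 and 152 FPKM in Col-0. Its call (log2 change -0.78; limma, Benjamini-Hochberg adjusted p = 0.0382) was lost in 7 of the 13 alternatives, among them leaving out GFP-GrxS5 replicate 2 or any 1 Col-0 library (adjusted p 0.0577 to 0.158) and the replicate block (0.0782). The activator genes PAP1 and PAP2 were near or at 0, with at most 0.567 FPKM for PAP1.

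The nitrate response genes outside the 9 repressors were mostly lower in GFP-GrxS5 roots. This list was chosen with earlier results of these data known. It shares NIA1, NIA2, NRT2.1, NRT1.1, TGA1 and TGA4 with the lists above. All 22 were tested: 10 fell, 12 missed the threshold and 0 rose, while 2.35% fell and 4.73% rose among all genes tested. The median log2 change of the 22 was -0.48, against 0.01 over all genes. At an unadjusted p under 0.05, 4 were higher and 14 lower. Both GFP-GrxS5 libraries lay below all Col-0 libraries in 17 genes and above them in 4, beside 20.3% and 22.6% of all genes tested. Those 4, named after their values were seen, were the kinase genes CIPK3 and CIPK23 and the scaffold protein genes BT1 and BT2, with log2 changes of 0.31, 0.39, 0.73 and 0.73 (limma, Benjamini-Hochberg adjusted p = 0.131, 0.0592, 0.19 and 0.159). Of the genes that fell, the count of 10 was 5 without GFP-GrxS5 replicate 1, 3 without GFP-GrxS5 replicate 2, 8 without Col-0 replicate 1, 5 without Col-0 replicate 2 and 7 without Col-0 replicate 3. It was 5 with no filter on FPKM, 3 without a variance trend and 4 with the replicate block. NIR1 (nitrite reductase) had 198 and 195 FPKM in GFP-GrxS5, against 339, 327 and 405 FPKM in Col-0, and G6PD3 (plastid reductant supply) had 40.5 and 44.2 FPKM in GFP-GrxS5, against 77.3, 77.3 and 97.5 FPKM in Col-0. Their log2 changes were -0.85 and -0.96, beside -0.69 for HHO1 and 0.62 for HHO5, and both calls were kept in all 13 alternatives (limma, Benjamini-Hochberg adjusted p = 0.0042 for NIR1 and 0.00512 for G6PD3). RFNR2, a root ferredoxin-NADP reductase gene, had 302 and 267 FPKM in GFP-GrxS5, against 465, 474 and 614 FPKM in Col-0. Its call (log2 change -0.85; limma, Benjamini-Hochberg adjusted p = 0.0111) was lost without GFP-GrxS5 replicate 2 (0.0662) and without a variance trend (0.0582).

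**Figure D5:**
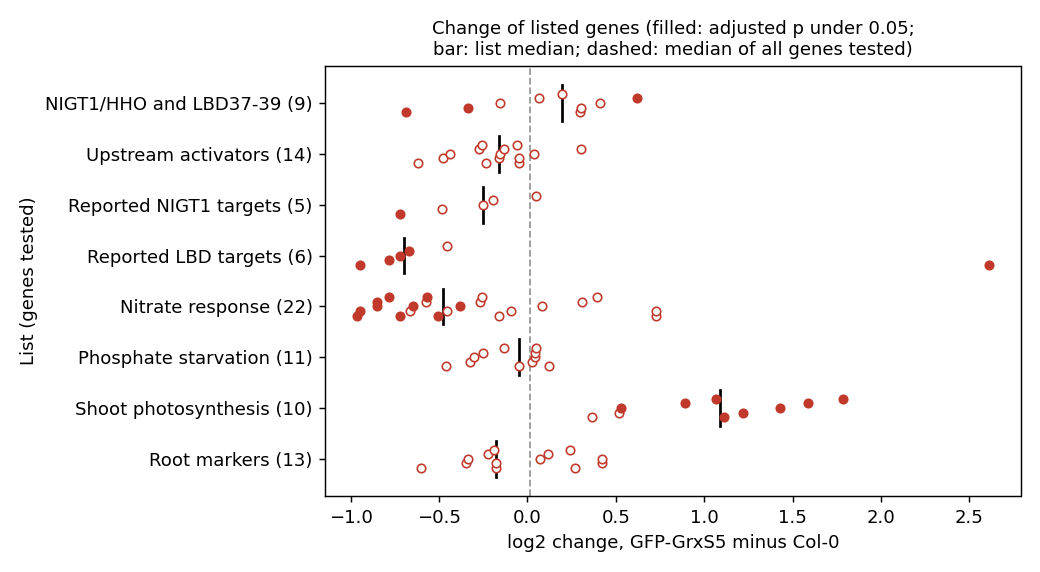
Log2 change, GFP-GrxS5 minus Col-0 (horizontal axis), of the 9 repressor genes and of listed genes around them; each point is a gene, filled where the limma Benjamini-Hochberg adjusted p is under 0.05, the black bars are list medians and the dashed line the median of all genes tested (0.01). The nitrate response genes centre at -0.48, the 9 repressors at 0.19 and the shoot photosynthesis markers at 1.09; a gene held by several lists is drawn in each.

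The listed genes nearest in profile to each repressor were found by the root mean square distance between log2(FPKM + 1) values, less their mean, over the 5 libraries among 75 tested genes. UPM1, which makes the sirohaem cofactor of nitrite reductase, was nearest to HHO1 (distance 0.0913), followed by NIR1 (0.115). UPM1 had 98.1 and 101 FPKM in GFP-GrxS5, against 146, 137 and 162 FPKM in Col-0; its call (limma, Benjamini-Hochberg adjusted p = 0.0112) was lost without GFP-GrxS5 replicate 1 or 2 (0.0638 and 0.0516), without a variance trend (0.0635) and with the replicate block (0.0615). For LBD37 the nearest gene was NLP5 (0.0718) and for HHO5 the photosystem gene PSAD1 (0.0969), which had 58.2 and 65.1 FPKM in GFP-GrxS5, against 38.6, 42.6 and 46.2 FPKM in Col-0. The PSAD1 call (limma, Benjamini-Hochberg adjusted p = 0.0256) was lost in 5 of the 13 alternatives. Among them were no variance trend (0.0851) and leaving out Col-0 replicate 1 or 2 (0.0654 and 0.0715). Its log2 change of 0.53 was 0.61 without GFP-GrxS5 replicate 1 and 0.45 without GFP-GrxS5 replicate 2. HHO6 was nearest to the phloem regulator gene APL (0.0631), with its relative HHO4 next (0.0633). The nearest genes were CASP1 for HRS1, LHCB2.1 for HHO2, EXPA7 for HHO3, SPX2 for LBD38 and PHT1;4 for LBD39, at distances of 0.143, 0.0851, 0.0941, 0.0944 and 0.0555. CIPK3 came second for HRS1, HHO3 and LBD38 (0.148, 0.101 and 0.0965), and CIPK23 for HHO2 (0.0883). First and second places were thus often close, so little weight rests on which gene is named. These distances are a description over 5 libraries of 2 genotypes, and all genes share those libraries.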

How the data were processed

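Root RNA-seq was analysed in 2 GFP-GrxS5 and 3 Col-0 libraries, grouped and numbered by the sample titles. The authors deposited FPKM per gene, per the file headers with bounds that add nothing, being equal to the value wherever the status is OK. The genome build is TAIR10 per the submitters' processing notes; the aligner, the quantifier, the annotation and the use of strand are not given in the sources at hand, and reads shared by related or antisense genes are uncertain. Each of the 9 genes has a locus of its own in the files.

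Genes with at least 1 FPKM in at least 2 libraries and status OK throughout entered the test (19693). Log2(FPKM + 1) was compared with limma 3.58.1 in R 4.3.3, with a variance trend, two-sided and without further scaling; p-values were Benjamini-Hochberg adjusted over all genes tested, with a threshold of 0.05. This scale understates the change of low genes. The fit was checked on simulated data; its residual degrees of freedom were 3 and its prior ones 4.37 (median). Depth was estimated from the mode of FPKM times length, assumed to stand for 1 fragment. It drew on 2021 single-transcript genes whose span is equal in the files and in RefSeq TAIR10.1. Of these, the 165 to 189 per library with low values above 0 entered the estimate. Counts were not recovered, so no count model was fitted. Ratios between related genes were compared by an exact permutation test. Motifs were searched on both strands in 22991 promoters of protein-coding genes with a locus of their own.

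Named were the 9 genes, GrxS5, 4 relatives, up to 6 genes per list past the threshold with the smallest p, NRT2.1, NRT2.4, NRT2.5, the SPX genes, NLP7, PHR1 and the nearest profiles; RBCS2B, LHCB1.2, SHR, SCR, NLP9, PAP1, PAP2, CIPK3, CIPK23, BT1, BT2, NLP4 and PLT1 were added after their values were seen. The members and the lists were chosen with earlier results of these data known. The alternatives tried were a pseudocount of 0.1 or 0.5, a filter of 5 FPKM or none, median-of-ratios scaling, quantile normalization, no variance trend, a replicate block and leaving out each library.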

Additional observations from a re-analysis of the deposited data

How the results depend on the processing

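Over 19693 genes, 932 rose and 462 fell; without a variance trend 398 rose and 184 fell, with the replicate block 418 and 176, and leaving out 1 library gave 313 to 594 rises and 192 to 242 falls. Among the 9 repressor genes 1 rose and 2 fell. With the replicate block 0 rose (HHO5, limma, Benjamini-Hochberg adjusted p = 0.0663) and 1 fell, without a variance trend 1 fell, and leaving out 1 library gave 0 to 1 rises and 1 to 1 falls. Pseudocounts, filters, median-of-ratios scaling and quantile normalization moved no count of the 9 genes. The median log2 change over all genes tested was 0.013 in the main fit and -0.026 under quantile normalization. Genotypes share replicate numbers 1 and 2, and deviations of same-numbered libraries from their group means correlated by -0.0395 and -0.00804 across genes, so the numbers were not taken as pairs. Of 520 values of 40 named genes, 469 kept direction and side of the threshold, 40 lost the call and 11 turned their sign. All 40 losses fell on genes called in the main fit, since the others had no call to lose. The cause of the losses and of the 11 turned signs was not tested. These 11 were the log2 changes of HHO6 (0.0034), HHO4 (0.068), SPX2 (-0.035), NLP7 (0.014) and PHR1 (-0.013) without Col-0 replicate 1, SPX1 (0.0196) without Col-0 replicate 2, HHO4 (0.046) and PHT1;4 (-0.045) without GFP-GrxS5 replicate 1, NLP7 (0.055) and PHR1 (-0.0083) without GFP-GrxS5 replicate 2, and PHR1 (-0.016) under quantile normalization. Over the leave-out settings these log2 changes ran from -0.34 to 0.0034 for HHO6, -0.21 to 0.068 for HHO4, -0.55 to 0.0196 for SPX1, -0.035 to 0.11 for SPX2, -0.15 to 0.055 for NLP7, -0.013 to 0.099 for PHR1 and -0.045 to 0.13 for PHT1;4. Where 1 GFP-GrxS5 library is left out, the other is assumed to vary like Col-0. At these depths HHO6 and HHO4, the lowest genes of the family, rest on the fewest fragments for their length.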
